A study of Homo sapiens with 4 samples.

Results

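The genes described here encode enzymes that make, recycle or degrade the building blocks of RNA and DNA. They were the 36 entries of the deposited gene table (57820 genes) whose symbol belonged to a given set for purine, pyrimidine and deoxynucleotide (dNTP) synthesis, and all 36 were found. The cells were 786-0, a long-established line of human renal carcinoma. The control (shNT) expressed a short hairpin RNA without a target, and the other group (shGLUD1) a hairpin against GLUD1. GLUD1 is the mitochondrial glutamate dehydrogenase, which turns glutamate into alpha-ketoglutarate and ammonia. Every library, control or not, came from cells deprived of amino acids for 12 h, with 2 libraries per hairpin. Whether the cells were a pool or a clone, and which promoter drove the hairpin, is not given in the sources used here.

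Purine synthesis builds the base stepwise on an activated ribose, PRPP, up to inosine monophosphate (IMP), from which AMP and GMP branch. Pyrimidine synthesis makes the ring first, attaches it to PRPP and ends in UTP and CTP. Ribonucleotide reductase then removes an oxygen from the ribose to give the dNTPs, and a separate branch makes thymidylate. Both pathways take nitrogen from the amide of glutamine, in the steps of PPAT, PFAS, GMPS, CAD, CTPS1 and CTPS2. Salvage enzymes return free bases and nucleosides to the pool, and several dNTP enzymes are made mainly in dividing cells.

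Expression was read as TPM (a transcript level scaled by transcript length and by the library's total), tested on log2(TPM + 1) with limma, and called at an adjusted p under 0.05 over the 12524 genes that averaged 1 TPM or more. TPM keep no read totals, so depth is unknown. Between 19724 and 20489 genes were above 0 per library. Nothing in the labels says that replicates were grown separately, so p-values reflect the spread between these 4 libraries alone, which may be technical. The median gene was higher in shGLUD1 by a log2 fold change of 0.63. Rescaled values are therefore given beside the TPM values of the members and of most other genes named. This scale sets the median gene to no change (median-ratio rescaling). GLUD1 itself stood at 18.09 and 17.43 TPM in shNT and at 13.52 and 19.82 TPM in shGLUD1, so 1 library labelled shGLUD1 was above both controls. Its log2 fold change was -0.11 (adjusted p = 0.631, rescaled -0.83, adjusted p = 0.00233), and directions below are drawn from the labels. Of the renal markers, PAX8 (5.18 to 8.75 TPM), KRT8 (41.51 to 64.1 TPM) and VIM (890.77 to 3755.83 TPM) were present, and VIM rose (1.86, rescaled 1.09). CA12 rose from 2.67 and 2.42 TPM in shNT to 12.62 and 15.43 TPM in shGLUD1 (2.08), and KRT18 lay between 0.66 and 1.87 TPM and fell (-0.64). PAX2 reached at most 0.12 TPM and CDH6 at most 0.01 TPM. The leukocyte marker PTPRC, the endothelial marker CDH5 and the liver marker ALB did not exceed 0.11 TPM. The mesenchymal markers PDGFRB and COL1A1 lay between 1.14 and 5.19 TPM and were higher in shGLUD1 on TPM (0.84 to 0.95). Neither was called after rescaling (0.34 to 0.37). The 7 markers of other cell types that were found summed to 4.13 and 3.56 TPM in shNT and to 7.67 and 9.05 TPM in shGLUD1, with UMOD at 0 throughout. Their part in the results below was not tested.

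Most of the nucleotide genes were higher in shGLUD1. On TPM, 28 of 36 rose, 2 fell (UCK1 and NME1) and 6 did not pass, beside 56.7% of all genes tested that were higher and 7.77% that were lower. The median log2 fold change of the 36 was 1.05, against 0.63 for all genes tested. Relative to the median gene, 16 were higher, 9 lower and 11 not called, beside 23.2% of all genes higher and 27.9% lower, and the median of the 36 was 0.39. Of the 28 that rose on TPM, 16 were also higher after rescaling, 11 were not called and 1, UCK2, was then lower. The largest increases were in RRM2, PAICS, GMPS, RRM1 and SAMHD1, the 5 members that were called and at least 2-fold higher after rescaling too, beside 6.64% of all genes. Without shGLUD1 replicate 2, the library in which GLUD1 TPM was not below the controls, 25 rose and 1 fell on TPM, beside 46.6% and 7.03% of all genes. PPAT, CTPS2 and RRM2B averaged under 1 TPM in shNT and passed the filter only through shGLUD1, and with no filter on low values 25 of the 36 rose and 1 fell (24.1% and 3.26% of all genes).

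**Figure D1:**
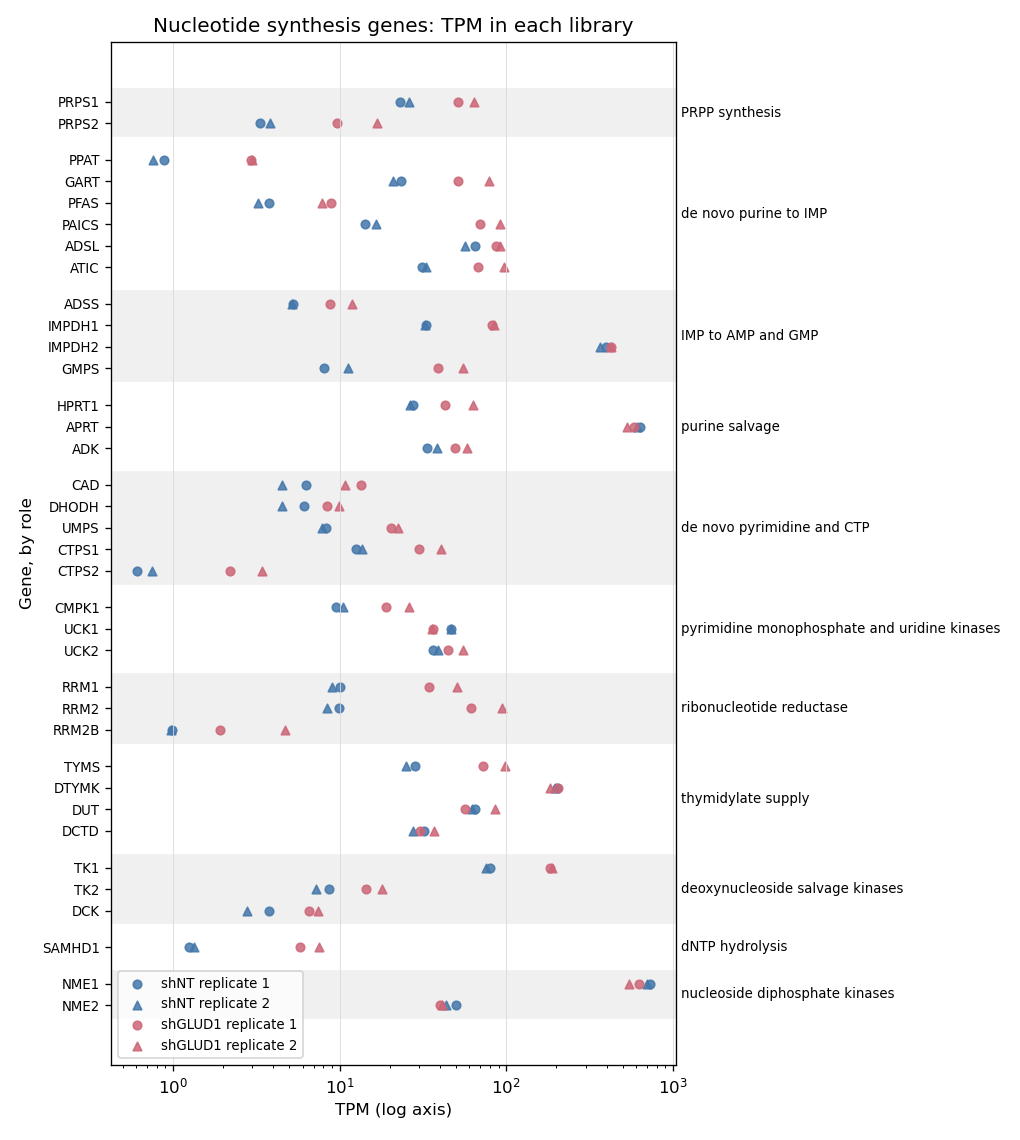
TPM of the 36 genes in each of the 4 libraries on a log axis, with 1 row per gene, grouped by role; blue marks are shNT, red marks shGLUD1, circles replicate 1 and triangles replicate 2. The shGLUD1 marks lie to the right of both shNT marks in 29 genes and to the left in 4, and they overlap in DTYMK, DUT and DCTD.

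In 29 members both shGLUD1 libraries were above both shNT libraries (69.9% of all genes tested), in 4 both were below (13.5%), and in 3 the groups overlapped. In 29 members shGLUD1 replicate 2 also lay above shGLUD1 replicate 1 on TPM. Whether this was particular to the members was not tested. The log2 median ratio used for rescaling was 0.50 in shGLUD1 replicate 2 and 0.29 in shGLUD1 replicate 1. It was taken over genes that averaged 1 TPM or more and were above 0 in every library. The share of all genes above replicate 1 in replicate 2 was not counted.

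The 2 PRPP synthetases supply both pathways. PRPS1 was at 23.11 and 25.92 TPM in shNT and at 51.38 and 64.43 TPM in shGLUD1. The groups were well apart, and PRPS1 rose (log2 fold change 1.20, SE 0.15, adjusted p = 7.02e-05, rescaled 0.46). PRPS2, at a lower level, was at 3.34 and 3.83 TPM in shNT and at 9.59 and 16.82 TPM in shGLUD1. It rose as well (1.59, SE 0.26, rescaled 0.93), with the shGLUD1 libraries further from each other than the controls.

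All 6 enzymes from PRPP to IMP rose on TPM, beside 56.7% of all genes tested. Of these 6, PPAT, GART, PAICS and ATIC were also higher after rescaling, beside 23.2% of all genes. PAICS (ENSG00000128050, chr4:56435741-56464579 on GRCh38, plus strand), which carries out the carboxylation step and the step that adds aspartate, stood at 14.2 and 16.49 TPM in shNT and at 69.76 and 91.78 TPM in shGLUD1. Its mean was 5.26-fold higher (log2 fold change 2.31, SE 0.16, adjusted p = 2.94e-06, rescaled 1.58). PPAT, the glutamine-using amidotransferase that commits PRPP to purines, was low in all libraries, at 0.88 and 0.76 TPM in shNT and at 2.96 and 2.97 TPM in shGLUD1. It rose on log2(TPM + 1) by 1.12 (SE 0.24, adjusted p = 0.00216, rescaled 0.66), a scale that understates the 3.62-fold difference of its means.

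GART, a trifunctional enzyme of the early steps, was at 23.27 and 20.88 TPM in shNT and at 51.11 and 78.98 TPM in shGLUD1 (log2 fold change 1.49, rescaled 0.74). ATIC, which closes the ring to IMP, was at 31.03 and 32.85 TPM in shNT and at 67.6 and 97.35 TPM in shGLUD1 (1.32, rescaled 0.57). In both, the lower shGLUD1 library was still above each control. PFAS, the other glutamine-using enzyme of this stretch, was at 3.79 and 3.25 TPM in shNT and at 8.85 and 7.83 TPM in shGLUD1 (1.05), and its rescaled value of 0.41 did not pass (adjusted p = 0.102). ADSL, adenylosuccinate lyase, changed least of the 6, from 64.91 and 56.82 TPM in shNT to 87.02 and 92.24 TPM in shGLUD1 (0.55). Relative to the median gene ADSL lay at -0.20 (adjusted p = 0.197).

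Past IMP, the members of the guanine branch differed from each other. GMPS (ENSG00000163655, chr3:155870536-155944026 on GRCh38, plus strand), GMP synthetase, which takes its amino group from glutamine, was at 8.12 and 11.17 TPM in shNT and at 39.03 and 54.82 TPM in shGLUD1. Its mean was 4.87-fold higher (log2 fold change 2.17, SE 0.20, adjusted p = 1.52e-05, rescaled 1.44). IMPDH1 and IMPDH2 both catalyse the preceding, rate-limiting oxidation of IMP. IMPDH1 rose from 32.83 and 32.38 TPM in shNT to 81.86 and 83.95 TPM in shGLUD1 (1.32, SE 0.12, adjusted p = 1.22e-05, rescaled 0.57), with replicates close together in both groups. The more abundant IMPDH2 was at 397.32 and 367.48 TPM in shNT and at 427 and 425.74 TPM in shGLUD1. It did not pass on TPM (0.16, adjusted p = 0.144) and was lower relative to the median gene (-0.60, adjusted p = 0.00547). ADSS (current symbol ADSS2), the adenylosuccinate synthase of the adenine branch, was at 5.22 and 5.19 TPM in shNT and at 8.73 and 11.9 TPM in shGLUD1 (0.85, rescaled 0.18 with an adjusted p of 0.37).

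Purine salvage was mixed. HPRT1, which returns hypoxanthine and guanine to the pool, rose from 27.67 and 26.3 TPM in shNT to 42.77 and 62.85 TPM in shGLUD1 (log2 fold change 0.92, adjusted p = 0.000955). Adenosine kinase, ADK, rose from 33.54 and 38.29 TPM in shNT to 49.55 and 58.47 TPM in shGLUD1 (0.57, adjusted p = 0.00389). Neither passed after rescaling (0.18 and -0.17). APRT, which salvages adenine, was among the most abundant members, at 636.98 and 612.12 TPM in shNT and at 583.23 and 528.57 TPM in shGLUD1. Its log2 fold change of -0.17 did not pass (adjusted p = 0.122), and it was lower relative to the median gene (-0.93, adjusted p = 0.00137). None of these 3 salvage genes was higher after rescaling, against 4 of 6 on the route from PRPP to IMP, beside 23.2% of all genes. This difference was not tested and depended on the scaling. With trends of each library in transcript length and GC content removed instead, all 3 were higher, against 5 of 6 on the route, beside 60.2% of all genes. With the median shift removed too, none of the 3 was higher and 1 was lower. On the route 3 were then higher and 1 lower, beside 20.7% and 26.1% of all genes.

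All 5 genes of pyrimidine synthesis and CTP formation rose on TPM, beside 56.7% of all genes tested. After rescaling 3 were higher, beside 23.2% of all genes. With trends of each library in transcript length and GC content removed as well as the median shift, none of the 5 was called (median 0.21). CAD, the trifunctional protein whose glutamine-dependent carbamoyl phosphate synthetase opens the pathway, was at 6.28 and 4.5 TPM in shNT and at 13.39 and 10.81 TPM in shGLUD1 (a log2 fold change of 1.04, SE 0.22, adjusted p = 0.0019). Its rescaled value of 0.37 did not pass (adjusted p = 0.18). DHODH, the mitochondrial enzyme that links this pathway to the respiratory chain, was at 6.09 and 4.49 TPM in shNT and at 8.37 and 9.97 TPM in shGLUD1. The DHODH increase (0.70, adjusted p = 0.0165) was the weakest of the 5 and its rescaled value was 0.035. It lost its call without shNT replicate 2 (0.52, adjusted p = 0.217) or without shGLUD1 replicate 2 (0.59, adjusted p = 0.0894).

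UMPS, which completes UMP, rose from 8.33 and 7.83 TPM in shNT to 20.36 and 22.39 TPM in shGLUD1 (log2 fold change 1.30, rescaled 0.59). Both CTP synthetases, which aminate UTP with glutamine, rose. CTPS1 was at 12.54 and 13.71 TPM in shNT and at 29.81 and 40.41 TPM in shGLUD1 (1.34, adjusted p = 9.78e-05, rescaled 0.61). CTPS2 was at 0.61 and 0.75 TPM in shNT and at 2.2 and 3.44 TPM in shGLUD1 (1.17, adjusted p = 0.00286, rescaled 0.73). CTPS1 thus gave most of the CTP synthetase transcripts in every library.

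The 6 glutamine amidotransferases, spread over these branches, all rose on TPM, and in each of them the groups did not overlap, beside 56.7% of all genes that were called higher and 69.9% that were higher without overlap. PPAT and CTPS2 passed the filter only through shGLUD1. Their log2 fold changes ran from 1.04 (CAD) to 2.17 (GMPS), with a median of 1.15. After rescaling 4 were higher (PPAT, GMPS, CTPS1 and CTPS2) and none lower, beside 23.2% and 27.9% of all genes. Among the other 30 members 22 rose and 2 fell on TPM, and rescaling left 12 higher and 9 lower. With trends of each library in transcript length and GC content removed as well as the median shift, only GMPS of the 6 was still higher (log2 fold change 1.06).

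**Figure D2:**
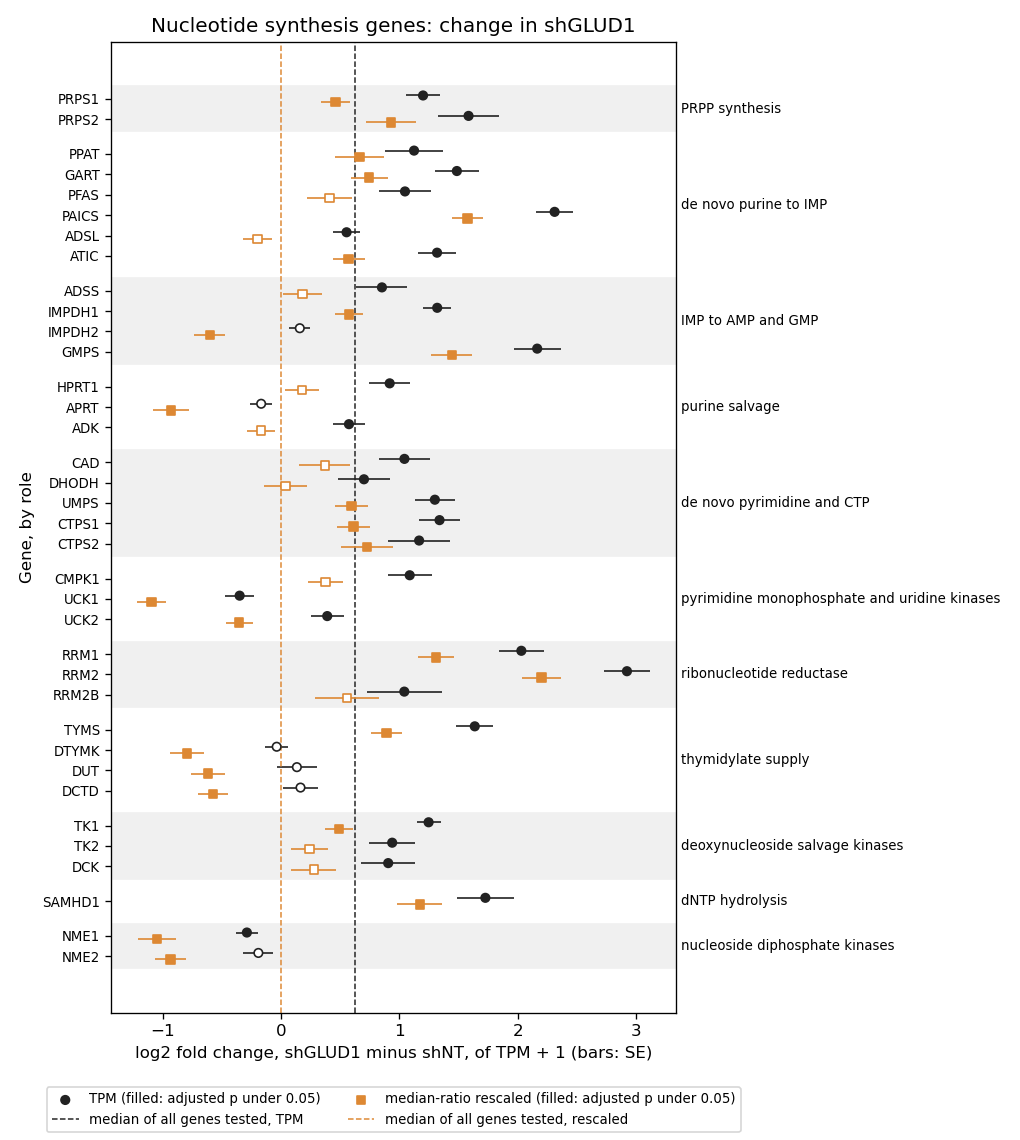
Log2 fold change of TPM + 1, shGLUD1 minus shNT, with its SE, for each gene on TPM (black circles) and after median-ratio rescaling (orange squares); filled marks passed at an adjusted p under 0.05, and dashed lines are the medians of all genes tested (0.63 on TPM). RRM2 lies furthest right on both scales (2.92 and 2.20), and UCK1, NME1, NME2 and APRT lie furthest left.

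The kinases of pyrimidine nucleosides and monophosphates moved in different directions. CMPK1, which phosphorylates UMP and CMP, rose from 9.48 and 10.49 TPM in shNT to 19.08 and 26.08 TPM in shGLUD1 (log2 fold change 1.09, rescaled 0.37 with an adjusted p of 0.0601). UCK1, a uridine-cytidine kinase of the salvage route, fell from 46.42 and 46.4 TPM in shNT to 36.36 and 35.98 TPM in shGLUD1 (-0.35, adjusted p = 0.0267, rescaled -1.09). Its close relative UCK2 rose from 36.51 and 38.76 TPM in shNT to 44.69 and 55.03 TPM in shGLUD1 (0.39, adjusted p = 0.0282), but it was lower relative to the median gene (-0.36, adjusted p = 0.0306). UCK1 lost its call without shNT replicate 1 (adjusted p = 0.171) or shNT replicate 2 (0.171). UCK2 lost its call without shNT replicate 1 (adjusted p = 0.157), shNT replicate 2 (0.0772) or shGLUD1 replicate 2 (0.132).

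Ribonucleotide reductase held the largest increase of the 36. RRM2 (ENSG00000171848, chr2:10120698-10131419 on GRCh38, plus strand), its S phase small subunit, was at 9.98 and 8.44 TPM in shNT and at 61.33 and 94.9 TPM in shGLUD1. The mean was 8.48-fold higher (log2 fold change 2.92, SE 0.20, adjusted p = 2.61e-06, rescaled 2.20). RRM1 (ENSG00000167325, chr11:4094707-4138876 on GRCh38, plus strand), the large catalytic subunit, was at 10.05 and 8.95 TPM in shNT and at 34.47 and 50.82 TPM in shGLUD1 (2.03, SE 0.19, adjusted p = 1.69e-05, rescaled 1.31). RRM2B, the alternative small subunit used outside S phase, was near 1 TPM in both controls (0.99 and 0.97) and at 1.92 and 4.69 TPM in shGLUD1. It rose (1.04, adjusted p = 0.0141), its rescaled value of 0.56 did not pass (adjusted p = 0.116), and the call was lost without shGLUD1 replicate 2 (0.56, adjusted p = 0.0714).

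In thymidylate supply, TYMS was the only one of 4 genes to rise on TPM, beside 56.7% of all genes tested. TYMS, thymidylate synthase, was at 28.44 and 24.96 TPM in shNT and at 73.02 and 98.97 TPM in shGLUD1 (a log2 fold change of 1.64, SE 0.16, adjusted p = 1.8e-05, rescaled 0.89). DTYMK, which phosphorylates its product, was at 200.36 and 197.31 TPM in shNT and at 205.12 and 182.86 TPM in shGLUD1 (-0.038, adjusted p = 0.753). DUT, which hydrolyses dUTP to the substrate of TYMS, was at 64.62 and 62.69 TPM in shNT and at 56.7 and 86.1 TPM in shGLUD1, on both sides of the controls (0.13, adjusted p = 0.507). DUT passed as higher without shGLUD1 replicate 1 (0.43, adjusted p = 0.0163). DCTD, the dCMP deaminase that feeds the same substrate, was at 31.91 and 27.72 TPM in shNT and at 30.31 and 36.88 TPM in shGLUD1 (0.16, adjusted p = 0.352). DTYMK, DUT and DCTD were lower relative to the median gene (-0.80, -0.62 and -0.58).

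The 3 salvage kinases of deoxynucleosides rose on TPM, beside 56.7% of all genes tested. TK1, the cytosolic thymidine kinase of dividing cells, was at 80.09 and 75.23 TPM in shNT and at 183.29 and 188.01 TPM in shGLUD1 (a log2 fold change of 1.25, SE 0.10, adjusted p = 7.55e-06, rescaled 0.49). The mitochondrial TK2 was at 8.69 and 7.18 TPM in shNT and at 14.33 and 18.01 TPM in shGLUD1 (0.94, adjusted p = 0.0017). DCK, deoxycytidine kinase, was at 3.75 and 2.79 TPM in shNT and at 6.51 and 7.41 TPM in shGLUD1 (0.91, adjusted p = 0.00556), and lost its call without shNT replicate 2 (adjusted p = 0.0939). The rescaled values of TK2 and DCK (0.24 and 0.28) did not pass. SAMHD1, which degrades dNTPs and so acts against the synthetic enzymes, also rose, from 1.25 and 1.33 TPM in shNT to 5.77 and 7.49 TPM in shGLUD1 (1.73, SE 0.24, adjusted p = 0.000156, rescaled 1.17).

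Genes of S phase and proliferation were mostly higher as well. Of 24 such genes 23 rose on TPM and none fell, beside 56.7% and 7.77% of all genes tested. Their median was 1.47, against 0.63 for all genes. After rescaling 20 were higher and none lower, beside 23.2% and 27.9% of all genes, with a median of 0.91. Ribonucleotide reduction, thymidylate supply, deoxynucleoside salvage and dNTP hydrolysis held 11 members. Of these 8 rose on TPM, and after rescaling 5 were higher and 3 lower, beside those same shares of all genes. Without SAMHD1, which degrades dNTPs, 7 of 10 rose on TPM, and after rescaling 4 were higher and 3 lower. The summed level of the S phase genes was 264.99 and 242.8 TPM in shNT, against 747.43 and 913.34 TPM in shGLUD1, and none was at 0 in all libraries. MKI67, a marker of cycling cells, was at 0.86 and 0.7 TPM in shNT and at 11.6 and 11.66 TPM in shGLUD1. MKI67, POLA1 and GINS1 averaged under 1 TPM in shNT and passed the filter only through shGLUD1. With no filter on low values 21 of the 24 rose, beside 24.1% of all genes. CCNB1, CDK2 and CCNA2, which drive the cell cycle, rose by log2 fold changes of 2.78, 2.27 and 2.22 (rescaled 2.04, 1.59 and 1.55). In bulk RNA more cells in S phase and more RNA per cell cannot be told apart, and the part of these genes in the dNTP changes was not tested. Among 18 measured regulators of such genes 12 rose and 1 fell on TPM, beside 56.7% and 7.77% of all genes. Rescaling left 6 higher and 5 lower, beside 23.2% and 27.9% of all genes. On log2(TPM + 1) the largest changes were in FOXM1 (1.80, rescaled 1.10), RBL2 (1.56, rescaled 1.05), E2F2 (1.55, rescaled 1.23) and RBL1 (1.45, rescaled 1.06). RBL2, E2F2 and RBL1 averaged 0.95, 0.17 and 0.385 TPM in shNT and passed the filter only through shGLUD1, so their order depends on the pseudocount. RB1 (mean 0.585 TPM in shNT) and NFYA (0.78 TPM), also called higher on TPM, passed in the same way. E2F2 activates E2F target genes, and RBL1 and RBL2 repress them. The regulator that fell, ATF4 (-0.94, rescaled -1.70), and MYC, which did not pass on TPM (-0.13, adjusted p = 0.595) and was lower after rescaling (-0.82), were named after their values were seen.

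The nucleoside diphosphate kinases, which make triphosphates, need care because of their labels. NME1 fell from 730.3 and 697.1 TPM in shNT to 622.27 and 547.04 TPM in shGLUD1 (log2 fold change -0.29, adjusted p = 0.0191, rescaled -1.05). The call was lost without shNT replicate 1 (adjusted p = 0.135), shNT replicate 2 (0.0557) or shGLUD1 replicate 2 (0.093). The entry listed as NME2 carries the identifier ENSG00000011052, which the reference names NME1-NME2, the read-through transcript of both genes. It was at 49.88 and 43.47 TPM in shNT and at 40.32 and 40.92 TPM in shGLUD1 (-0.19, adjusted p = 0.205, rescaled -0.94). The entry listed as NME1-NME2 carries the identifier of NME2 itself, ENSG00000243678. That entry was at 4009.35 and 3843.34 TPM in shNT and at 2946.66 and 2776.58 TPM in shGLUD1 (-0.46, adjusted p = 0.000864, rescaled -1.22). None of these 3 entries was higher, and because the 3 gene models overlap on one strand of chromosome 17 the split of reads between them is uncertain. Of the relatives NME3, NME4, NME6 and NME7, NME4 and NME7 rose on TPM (0.48 and 0.76), and neither was called after rescaling (-0.27 and 0.085). These relatives were named after their values were seen. No other member's identifier and symbol disagreed, apart from the renaming of ADSS.

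A ratio of 2 genes within a library does not depend on how libraries are scaled against each other, so 8 pairs were compared this way. An exact permutation of 2 against 2 libraries cannot give a two-sided p below 0.33, so each pair is described by its values. IMPDH1 stood at 0.0826 and 0.0881 of IMPDH2 in shNT and at 0.192 and 0.197 of it in shGLUD1. The log2 ratio was higher by 1.19 (SE 0.051, n = 2 per group, exact permutation p = 0.33), a gap much wider than the spread within either group. The ratio of RRM2 to RRM1 was 0.993 and 0.943 in shNT and 1.78 and 1.87 in shGLUD1, a log2 difference of 0.91 (SE 0.051, exact permutation p = 0.33). The small subunit transcript thus went from level with the large subunit to above it.

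UCK2 over UCK1 went from 0.787 and 0.835 in shNT to 1.23 and 1.53 in shGLUD1, so the order of these 2 kinases switched on TPM (log2 difference 0.76, SE 0.16). With length and GC trends removed that difference was 0.27. RRM2 over RRM2B went from 10.1 and 8.7 to 31.9 and 20.2 (log2 difference 1.44, SE 0.35), a wide gap with a wide spread in shGLUD1. PRPS1 over PRPS2 went from 6.92 and 6.77 to 5.36 and 3.83 (log2 difference -0.60, SE 0.24). CTPS1 over CTPS2 went from 20.6 and 18.3 to 13.6 and 11.7 (log2 difference -0.62, SE 0.13), but the sign turned with a pseudocount of 1 TPM (0.17), as CTPS2 was under 1 TPM in shNT. In these 6 pairs the groups did not overlap. They overlapped for TK1 over TK2 (log2 difference 0.23, exact permutation p = 0.667) and for NME1 over the entry listed as NME2 (-0.093, exact permutation p = 0.667). Over the entry with the identifier of NME2 itself, a ratio added after seeing the data, NME1 stood at 0.182 and 0.181 in shNT and at 0.211 and 0.197 in shGLUD1, without overlap (log2 difference 0.17).

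**Figure D3:**
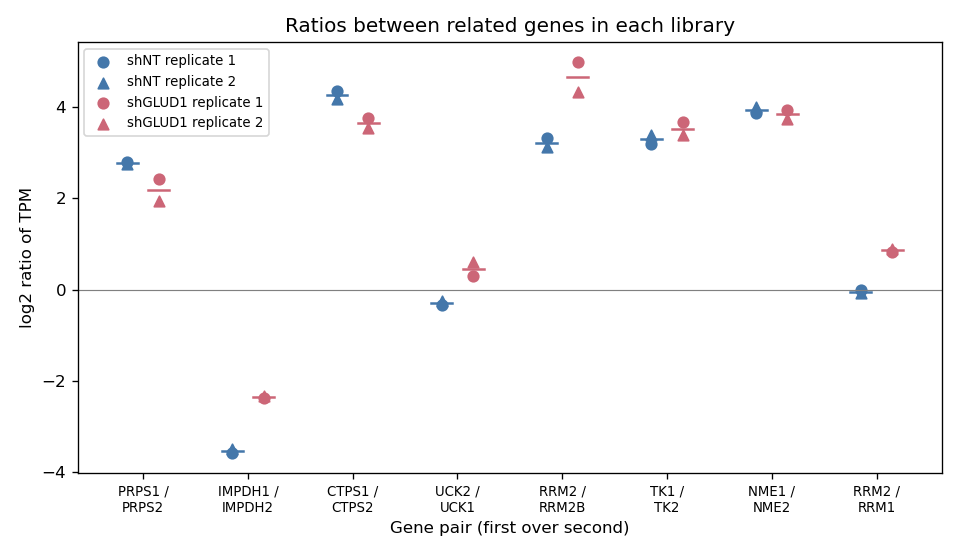
Log2 ratio of TPM between 2 related genes in each library for the 8 pairs (blue shNT, red shGLUD1, circles replicate 1, triangles replicate 2, short bars the group means). The groups lie apart in 6 pairs, with log2 differences of 1.44 for RRM2 over RRM2B and 1.19 for IMPDH1 over IMPDH2, and overlap for TK1 over TK2 and for NME1 over the entry listed as NME2, which carries the read-through identifier.

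Other enzymes and carriers of nucleotide metabolism gave a mixed picture. Of 54 listed genes 42 were tested, of which 19 rose and 4 fell on TPM, beside 56.7% and 7.77% of all genes. Rescaling left 8 higher and 18 lower, beside 23.2% and 27.9% of all genes. Their median log2 fold change was 0.35, below that of all genes (0.63). The largest changes that passed among the increases were in the adenylate kinases AK3 (1.72, rescaled 1.08), AK5 (1.54, rescaled 0.89) and AK4 (1.49, rescaled 0.80) and in NT5E (1.46, rescaled 0.70), the ecto-nucleotidase that makes adenosine.

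The 4 genes of this list that fell were UPP1, NT5C, ITPA and GUK1, of which GUK1 was named by rule and the others after their values were seen. UPP1, uridine phosphorylase, which breaks uridine down to uracil, was at 371.69 and 386.88 TPM in shNT and at 166.9 and 148.97 TPM in shGLUD1 (-1.26, adjusted p = 5.69e-06, rescaled -2.02). NT5C, a nucleotidase of deoxynucleoside monophosphates, fell from 142.68 and 142.45 TPM to 85.05 and 80.17 TPM (-0.78, rescaled -1.54). ITPA, which removes inosine triphosphate, fell by 0.61 on the log2 scale (rescaled -1.36). GUK1, guanylate kinase, the step after GMPS, fell from 687.8 and 771.18 TPM in shNT to 555.75 and 496.37 TPM in shGLUD1 (-0.47, adjusted p = 0.00176, rescaled -1.23). With length and GC trends removed GUK1 (-0.023), NT5C (-0.19) and ITPA (-0.19) were no longer called, and UPP1 was still lower (-1.10). With the median shift removed too, all 4 were called lower: GUK1 (-0.74), NT5C (-0.92), ITPA (-0.90) and UPP1 (-1.82). PNP and DGUOK rose on TPM (0.46 and 0.31), but after rescaling PNP was not called (-0.29) and DGUOK was lower (-0.45). TYMP did not pass on TPM (0.029) and was lower after rescaling (-0.63), and XDH and CMPK2 were too low to test. MTAP, which salvages adenine from methylthioadenosine, was listed at 0 TPM in all 4 libraries, as were its chromosomal neighbours CDKN2A and CDKN2B, which were looked up after that value was seen.

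In the supply of one-carbon units and amino acids, 8 of 15 tested genes rose and 1 fell, beside 56.7% and 7.77% of all genes. After rescaling 1 was higher and 8 were lower, beside 23.2% and 27.9% of all genes. Named after their values were seen, MTHFD1, the cytosolic enzyme that makes the formyl donor of purine synthesis, rose from 13.21 and 14.8 TPM in shNT to 46.29 and 54.78 TPM in shGLUD1 (log2 fold change 1.78, rescaled 1.05). SHMT2, the mitochondrial serine hydroxymethyltransferase, fell from 277.8 and 266.02 TPM to 223.45 and 233.01 TPM (-0.25, adjusted p = 0.0333, rescaled -1.01). SHMT2 was lower with rescaling and trends removed together (-0.95). Its call on TPM was lost with trends removed alone (-0.23, adjusted p = 0.0596). It was also lost with a replicate block, with no variance trend, with no filter, and on leaving out either shNT library or shGLUD1 replicate 1.

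Transcript length went with the change over all genes. The median log2 fold change of all genes tested was 0.25 in the shortest of 3 equal bins (up to 2124 nt), 0.70 in the middle bin and 0.92 in the longest (from 3965 nt). Of the 9 members in the shortest bin 3 rose (HPRT1, TYMS and TK1), of 14 in the middle 12 rose, and all 13 of the longest rose, beside 37.3%, 62.4% and 71.3% of all genes. The members' medians in these bins were 0.16, 1.16 and 1.05, so their size did not rise further past the middle bin, which holds RRM2 and RRM1. The genes that did not rise, among them APRT, DTYMK, IMPDH2, NME1 and DCTD, were mostly short. With length and GC trends removed from each library 28 members rose and none fell (60.2% and 6.09% of all genes). Compared with TPM alone, APRT (0.40), DTYMK (0.39) and IMPDH2 (0.32) gained a call as higher, ADSL (0.23), DHODH (0.43) and UCK2 (0.081) lost theirs, and UCK1 (-0.19) and NME1 (-0.21) were no longer lower. With the median shift removed too, 12 members were higher and 10 lower (20.7% and 26.1% of all genes). RRM2 (1.91), PAICS (1.20), RRM1 (1.09), GMPS (1.06), TYMS (1.03) and TK1 (0.91) were the highest of these. Among the 10 lower were UCK1 (-0.88), NME1 (-0.94), APRT (-0.33), DTYMK (-0.33) and IMPDH2 (-0.40). The length used was that of the longest coding transcript, which may not be the one these cells express.

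**Figure D4:**
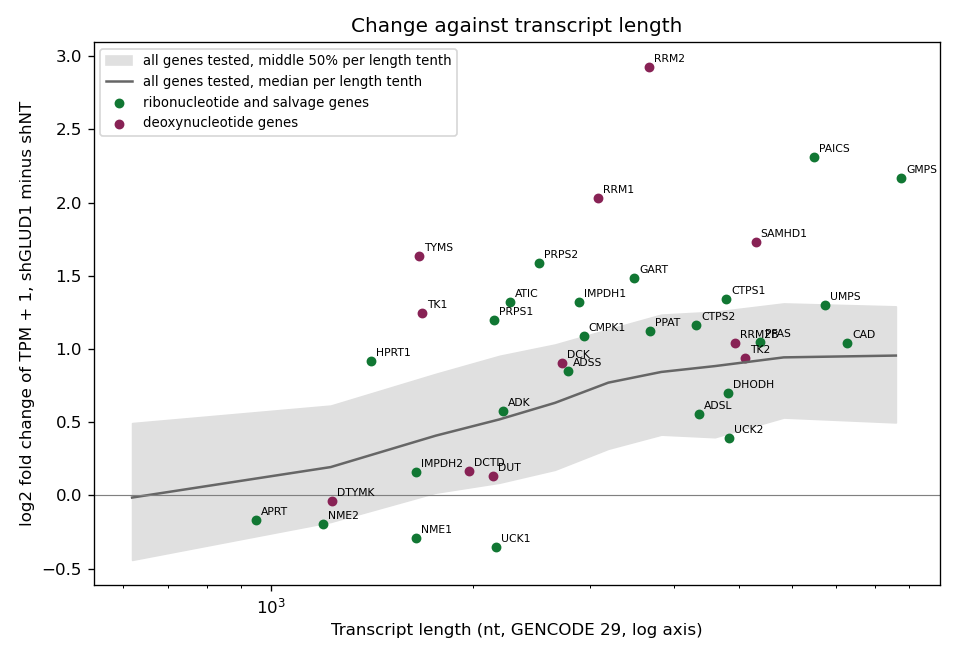
Log2 fold change of TPM + 1 against transcript length on a log axis for the 36 genes, with deoxynucleotide genes in purple and the others in green; the grey line and band are the median and interquartile range of all genes tested in bins of length. RRM2 (2.92), PAICS (2.31), GMPS (2.17) and RRM1 (2.03) lie above the band, and UCK1 (-0.35) and NME1 (-0.29) below it.

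The promoters of these genes were read from RefSeq windows on GRCh38.p14 that run from 250 bases before to 50 after each start. Windows were found for 33 members (ADSS under its current symbol), in all but ADSL, IMPDH2 and RRM2B. PPAT and PAICS, which rose together, start head to head on chromosome 4 with 126 bases between their starts by GENCODE, so they share 1 promoter region. It is shown because a pair of purine genes is read outward from it, on the strand of PAICS, at chr4:56435616-56435740 on GRCh38.
PPAT and PAICS: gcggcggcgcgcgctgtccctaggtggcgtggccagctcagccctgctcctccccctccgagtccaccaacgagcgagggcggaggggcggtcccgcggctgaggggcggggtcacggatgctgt
None of the motifs searched lies in these bases, of which 76% are G or C. An E-box (CACGTG) lies just outside, 40 bases past the RefSeq start of PAICS.

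Other members also share a promoter region with a neighbour that makes no nucleotide enzyme. TK1 lies 84 bases from AFMID and TK2 lies 19 bases from CKLF, whose log2 fold changes of -0.048 and 0.15 did not pass while TK1 and TK2 rose. ADK lies 122 bases from AP3M1, which was at 0.38 and 0.54 TPM in shNT and at 4.39 and 7.18 TPM in shGLUD1 (2.19). DTYMK lies 94 bases from ING5, and neither passed. In addition 7 members overlap a protein-coding gene on the opposite strand, among them TYMS with ENOSF1 and UCK2 with TMCO1. Whether the authors' quantification used strand is not given in the sources used here, so reads there cannot be told apart.

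In all, 4 short motifs were searched on both strands of the windows: E2F (TTTGGCGC or TTTCCCGC), E-box (CACGTG), NF-Y box (CCAAT) and CHR (TTTGAA). The E2F letters, bound by the factors that time S phase transcription, were in 5 of 49 member windows (10.2%), against 2.27% of all 35116 windows. Each of these windows was of a different gene, namely TYMS, DUT, DCK, PRPS2 and GART. The E-box was in 12.2% of member windows against 7.26% of all, the NF-Y box in 32.7% against 34.6%, and the CHR in 8.16% against 15.2%. A match is a description of letters, not a bound site. The E2F matches of 3 dNTP genes are shown as 30 bases on the gene's own strand with the motif in capitals. Those of PRPS2 and GART, which make purines or their PRPP and rose on TPM, are not shown. DUT holds another match, at -42 from its start, beside the one shown at -27. The matches shown lie at chr18:657606-657635 (TYMS), chr15:48332162-48332191 (DUT) and chr4:70993662-70993691 (DCK).
TYMS: ggacggccGCGGGAAAaggcgcgcggaagg
DUT: atttcggtTTTGGCGCgctccctgcggcga
DCK: gcctccgcGCGCCAAAgtcaaaccccgaca
Of the genes shown TYMS and DCK rose on TPM and DUT did not pass.

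RRM2, the member with the largest increase, had no E2F letters in its windows but held 3 NF-Y boxes in a row, at 123, 93 and 66 bases before 1 of its RefSeq starts. RRM1, its partner subunit, had 1 such box 28 bases before its start. NF-Y boxes were no more frequent in member windows (32.7%) than in all windows (34.6%). More than 1 box in a window was also found in GART, TK1 and SAMHD1, which rose on TPM. DTYMK held boxes at -92 and -24 and did not pass on TPM (-0.038, rescaled -0.80). The RRM2 boxes are shown because the bases around them are alike, with the box in capitals, at chr2:10122608-10122637, chr2:10122638-10122667 and chr2:10122665-10122694, followed by that of RRM1 at chr11:4094649-4094678.
RRM2 box at -123: aggcgcagCCAATgggaagggtcggaggca
RRM2 box at -93: tggcacagCCAATgggaagggccggggcac
RRM2 box at -66: caccaaagCCAATgggaagggccgggagcg
RRM1 box at -28: gtccatatCCAATggggcccatgggagagg
Transcripts of the NF-Y subunits NFYA, NFYB and NFYC rose on TPM (1.31, 0.72 and 0.52), beside 56.7% of all genes tested. The median of all genes was 0.63. After rescaling only NFYA was higher (0.84), and NFYB (0.056) and NFYC (-0.20) were not called. Any part of NF-Y in the changes of RRM2 and RRM1 was not tested. NFYA averaged 0.78 TPM in shNT and passed the filter only through shGLUD1. These subunits were named for this comparison after their values were seen.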

How the data were processed

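Total RNA (1 µg per library) was made into TruSeq V2 libraries, per the labels' protocols. The authors deposited TPM values for 57820 genes, with 1 column per library that sums to about 1000000. Of upstream software only Bowtie 0.12.2, and of builds hg38 and mm8, appear in the submitters' processing notes, with no role. The quantifier and annotation were not given in these sources. TPM are shares of a library's total, so they depend on the most abundant transcripts.

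Columns were matched to samples by title. Genes averaging 1 TPM or more were tested as log2(TPM + 1) with limma 3.58.1 in R 4.3.3 (variance trend, group as the only term), two-sided, with Benjamini-Hochberg adjustment over 12524 genes. Each group has n = 2 libraries. Median-ratio rescaling divided each library by the median ratio of its genes to their geometric mean. Length and GC trends were removed by loess (span 0.5) with GENCODE 29 transcripts. The test was checked on simulated data. Members, lists and motifs were chosen with earlier results of these data known. Every member is named, as are up to 4 passing genes with the largest change of the lists of other nucleotide enzymes, regulators and S phase genes, and fixed enzymes beside member steps, of which some are not reported here. Alternatives were other pseudocounts, filters and scalings, a fit without the variance trend, a replicate block and leaving out each library. Tables, permutation tests and figures used Python 3.11.15 with pandas 2.3.3, scipy 1.17.1 and matplotlib 3.10.9.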

Additional observations from a re-analysis of the deposited data

How the results depend on the processing

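The number of genes called depended on how the libraries were scaled, and the cause of each change below was not tested. Over all genes 4676 were higher at a mean of at least 5 TPM, where fewer genes were tested. With median-ratio rescaling 2910 were higher and 3491 lower, with quantile normalization 2938 and 2764, and with rescaling and length and GC trends removed together (chosen after seeing the data) 2539 and 3197. Of the 36 nucleotide genes 16, 15 and 12 were higher under these 3 scalings, with medians of 0.39, 0.40 and 0.23. After rescaling 9 were lower, and 10 with both corrections, 4 without the cytosolic ribosomal protein genes, 1 with no filter, 0 with trends removed alone and 0 with no variance trend. Leaving out 1 library gave 0 to 3 lower and 25 to 29 higher. Of the 6 amidotransferases 2 were higher with quantile normalization and 1 with both corrections. Of the other nucleotide enzymes 8, 11 and 8 were higher and 18, 15 and 14 lower under rescaling, quantile normalization and both corrections, 8 were lower without the ribosomal genes and 2 with trends removed. GLUD1 was at -0.83, -0.75 and -1.05 under these 3 scalings and between -0.37 and 0.15 with 1 library left out.

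Some log2 fold changes turned sign. Under rescaling these were ADSL (-0.20), IMPDH2 (-0.60), ADK (-0.17), UCK2 (-0.36), DUT (-0.62) and DCTD (-0.58). With both corrections they were ADSL (-0.54), IMPDH2 (-0.40), ADK (-0.23), DHODH (-0.24), UCK2 (-0.68), DUT (-0.68), DCTD (-0.44) and TK2 (-0.078). Quantile normalization turned DHODH (-0.074), UCK2 (-0.086), DUT (-0.23) and DCTD (-0.39), and leaving out the ribosomal genes turned IMPDH2 (-0.034), DUT (-0.056) and DCTD (-0.022). With trends removed alone APRT (0.40), DTYMK (0.39) and NME2 (0.11) turned, and without shGLUD1 replicate 2 DTYMK and DUT, which ranged from -0.12 to 0.045 and from -0.16 to 0.43 with 1 library left out.

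The log2 ratio of CTPS1 to CTPS2 turned to 0.17 with TPM + 1 and to 0.16 with trends removed, and that of RRM2 to RRM2B was 1.88 and 1.80. With trends removed the ratios changed by -0.31 for PRPS1 to PRPS2, 1.12 for IMPDH1 to IMPDH2, 0.27 for UCK2 to UCK1, 0.98 for TK1 to TK2, -0.32 for NME1 to NME2 and 0.83 for RRM2 to RRM1. The NME1 ratio ranged from -0.20 to 0.010 with 1 library left out.

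With the replicate number as a block 28 members rose and 2 fell, and no member call changed. Over all genes 7395 were higher and 1061 lower. The deviations of the replicate 1 libraries from their group means correlated at 0.039 over genes. With 2 libraries per group the replicate 2 deviations mirror these, so they add no further value. The labels give same-numbered libraries only a number in common. Read depth is unknown, so the precision of low genes such as PPAT, CTPS2 and RRM2B cannot be stated from counts.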
